A study of Mus musculus with 6 samples.

Results

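The genes described here are 7 relatives of Adam10 and 2 regulators of ADAM17, measured in mouse cartilage: the membrane proteases Adam8, Adam9, Adam12, Adam15, Adam17 and Adam19, the related protein Adam23, and the iRhom genes Rhbdf1 and Rhbdf2. They were chosen by name, and their probes by the RefSeq accession that the array files give each probe. The 9 genes were measured by 13 of the 55681 probes on the array, and all 13 passed the filter on dim probes, so that 9 of the 25494 tested features are these genes. Tibial cartilage came from 3 control mice and 3 mice with the genotype ADAM10 flox/flox-Col2a1-Cre, called mutants here, all of the strain C57BL/6. In the mutants a Cre recombinase under the promoter of the chondrocyte collagen gene Col2a1 acts on loxP-flanked Adam10, so cells of the sample that never used that promoter keep the gene. The labels give neither the age of the mice nor the alleles carried by the controls.

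ADAM proteins sit in the cell membrane and most carry a metalloprotease domain that cuts the outer part off other surface proteins, a step called ectodomain shedding, which releases growth factors and cytokines and switches receptors on or off. ADAM17 is the closest relative of ADAM10 and shares several of its substrates. The iRhoms resemble rhomboid proteases but lack their activity. They carry ADAM17 out of the endoplasmic reticulum and hold it in its active form at the cell surface. The comparison asks whether transcripts of these related sheddases and of their regulators differed in cartilage in which Adam10 was targeted.

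The 6 arrays shared a slide and a scan. Depending on the array, 62.4% to 65.4% of the spots exceeded background by the scanner software's criterion, and saturation was recorded for 0 of them. All 15 markers of chondrocytes that were looked up, among them Col2a1 and Acan, were well above background on every array. The lowest signal that counted as well above background was between 14.6 and 16.3 intensity units per array. Mutant 2 and control 1 stood apart. Mutant 2 was the lowest or highest of the 6 arrays for 56.7% of all tested features and control 1 for 49.6%, against 18% to 26.9% for each of the other 4 arrays. For Adam10 itself, measured by 1 probe, the mutants (log2 signals of 0.15, -1.70 and 0.31) all lay below the controls (1.61, 1.58 and 1.21). Its difference was -1.88 (SE 0.53, 95% interval -3.16 to -0.60), with a limma adjusted p of 0.987 and an exact permutation p of 0.1. It was -1.24 without mutant 2 and -0.68 with the score of macrophage markers, described further on, as a covariate. Whether that probe lies in the deleted part of the gene is not given in the sources used here.

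None of the 9 genes was called different between the genotypes. At an adjusted p below 0.05 limma called 0 of 9 at the gene level, where 0% of all features were called, and 0 of 9 had an unadjusted p below 0.05, against 3.44% of all features. The control and mutant arrays overlapped for all 9 genes, whereas they did not overlap for 8.95% of all features. The difference was below 0 for 7 of the 9 (77.8%) and above 0 for Rhbdf1 and Rhbdf2, where 40% of all features were below 0. The median difference was -0.17 on the log2 scale for the 9 genes and 0.04 for all tested features. The genes fell into a narrow group, with intervals that reach no further than 1.49-fold in either direction (Adam9, Adam15, Adam17, Rhbdf1, Rhbdf2 and the brightest probe of Adam12), and a wide group whose intervals reach 2.79-fold to 3.70-fold lower in mutants (Adam23, Adam8 and Adam19). All values below are log2 signals relative to the 75th percentile of the array, and differences are mutant minus control.

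**Figure D1:**
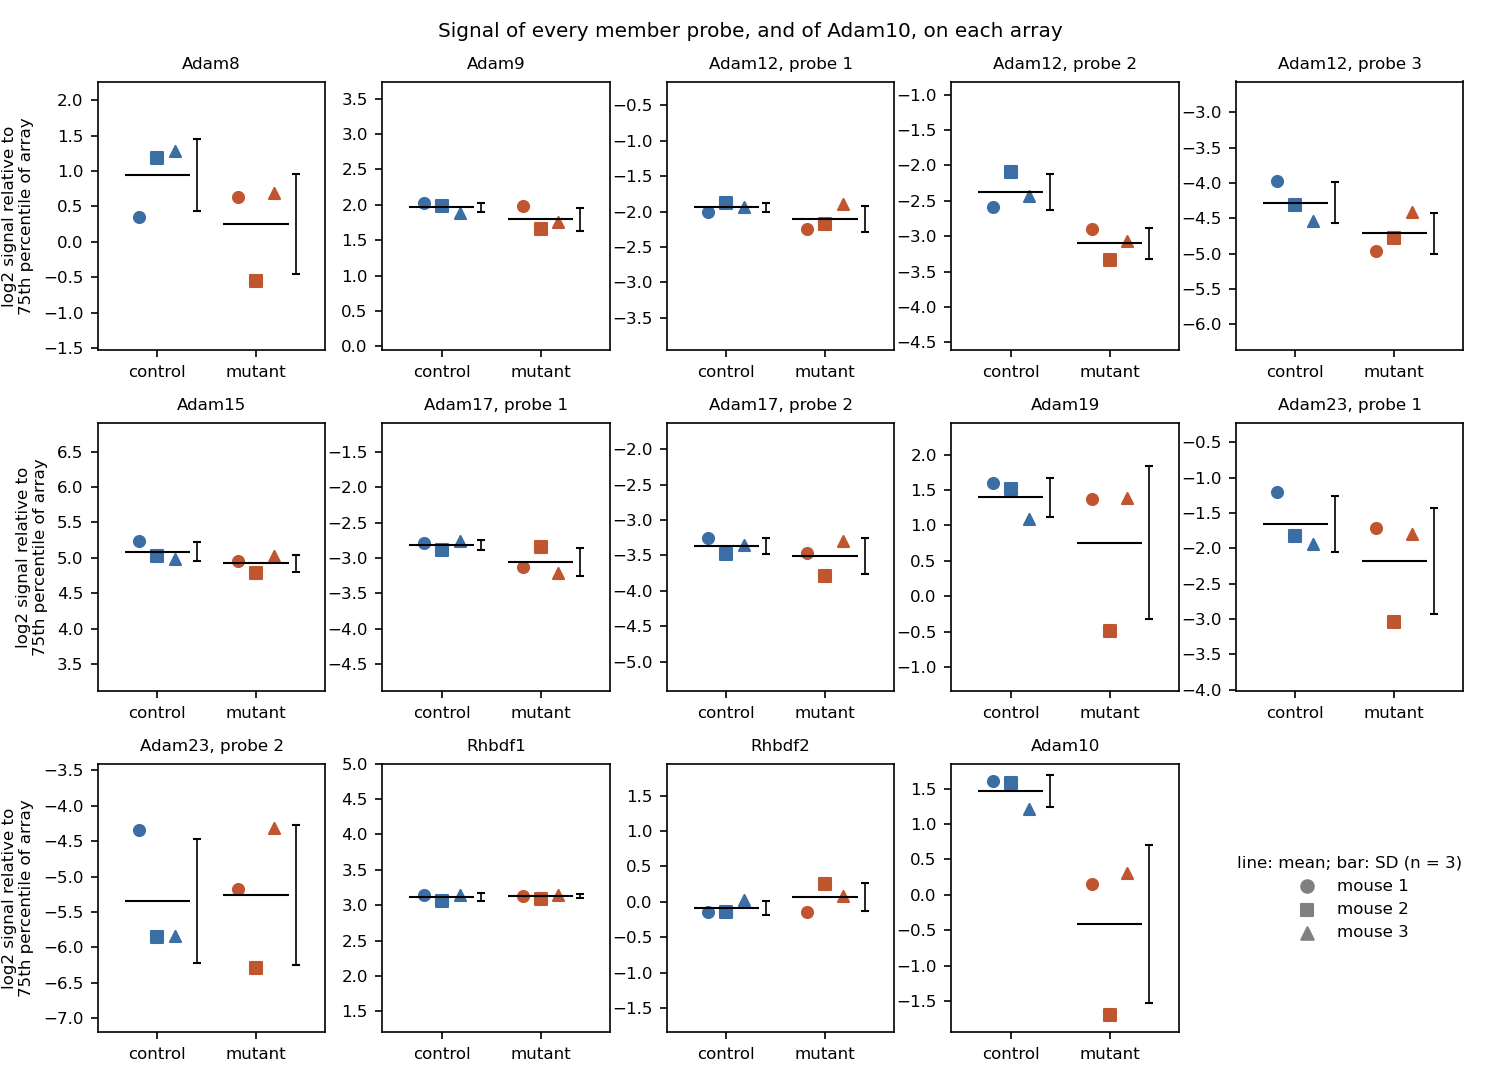
Log2 signal relative to the 75th percentile of the array (vertical axis, the same span in every panel) for the 13 probes of the 9 genes and for Adam10, in control (blue) and mutant (orange) arrays, with the mean as a line, the SD as a bar (n = 3) and the mouse number as the symbol. The array of mutant 2 lies far below the other 5 for Adam19 at -0.49, and the second Adam12 probe is the 1 member probe whose groups do not overlap.

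Adam17, also known as the tumour necrosis factor converting enzyme, releases tumour necrosis factor and several ligands of the epidermal growth factor receptor. On its brighter probe (A_55_P2128188) the controls, in the order of their numbers, had log2 signals of -2.79, -2.89 and -2.76, and the mutants of -3.12, -2.84 and -3.20. Mutants 1 and 3 were below all controls and mutant 2 lay among them, so the groups overlapped. The difference was -0.24 (SE 0.14, 95% interval -0.57 to 0.09, limma adjusted p 0.987). As a ratio, mutants stood at 0.847 times the controls, with an interval from 0.673 to 1.07. On this probe a rise beyond 1.07-fold in the mutants thus lies outside the interval, and a fall of up to 1.49-fold lies within it. The second probe (A_55_P1999097) differed by -0.15 (SE 0.17, 95% interval -0.55 to 0.25) with mutant 2 the lowest array, and by -0.012 without that array. Its ratio had an interval from 0.685 to 1.19, which allows a larger rise than the brighter probe does. With the macrophage or endothelial marker score described further on as a covariate, the brighter probe differed by -0.45 (SE 0.13) or -0.41 (SE 0.12). The adjusted p was 1 in both fits of limma. In the same fits the second probe differed by 0.085 or 0.047, above 0. With normexp background correction the difference of the brighter probe was smaller, at -0.16 (percentile scaling) or -0.12 (quantile scaling). Both probes were dim but well above background on all 6 arrays, at 43.2 to 85.5 intensity units.

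Rhbdf1 encodes iRhom1, the iRhom found in most tissues. Its log2 signals were 3.14, 3.05 and 3.14 in controls and 3.13, 3.09 and 3.15 in mutants. The 6 arrays ran from 3.05 to 3.15, and 99.5% of tested features had a larger spread within groups. The difference was 0.01 (SE 0.11, 95% interval -0.24 to 0.26, adjusted p 0.995), which corresponds to a ratio between 0.845 and 1.20. This was the tightest measurement among the 9 genes, and the sign of so small a difference turned with the scaling, to -0.033 with normexp background correction and quantile scaling.

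Rhbdf2 encodes iRhom2, which is prominent in immune cells and is needed there for the release of tumour necrosis factor. It read -0.15, -0.14 and 0.03 in controls and -0.14, 0.26 and 0.08 in mutants. Mutants 2 and 3 were above all controls and mutant 1 was level with the lower controls. The difference was 0.15 (SE 0.14, 95% interval -0.19 to 0.50, adjusted p 0.987), or a ratio of 1.11 with an interval from 0.876 to 1.41. Rhbdf2 was the only one of the 9 genes that was highest on mutant 2, which was the highest array for 38% of all tested features. On the first row of the slide, which held the controls and mutant 1, the difference was -0.048, and without mutant 2 it was 0.060.

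Adam9 and Adam15 are widely expressed members with protease activity, and both bind integrins. Adam9 read 2.02, 1.98 and 1.89 in controls and 1.98, 1.66 and 1.75 in mutants. Mutant 1 lay among the controls and mutants 2 and 3 lay below them. Its difference was -0.17 (SE 0.13, 95% interval -0.48 to 0.15, adjusted p 0.987). Adam15 read 5.24, 5.03 and 4.99 in controls and 4.96, 4.79 and 5.02 in mutants, so mutants 1 and 2 were below all controls and mutant 3 was among them. Its difference was -0.16 (SE 0.13, 95% interval -0.48 to 0.15, adjusted p 0.987). Both genes were highest on control 1 and lowest on mutant 2. The ratios of 0.891 and 0.894 were near each other, and that of the brightest Adam12 probe was 0.891 too. Among the 8 other genes described here, each was the nearest to the other in its pattern over the 6 arrays. The mean absolute difference between their centred log2 signals was 0.079. Of all tested features with a symbol, 1.23% were closer to Adam9 and 1.74% closer to Adam15.

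Adam12, first described as a meltrin in myoblast fusion, cleaves insulin-like growth factor binding proteins. Its 3 probes all had a difference below 0, by unequal amounts. Its brightest probe (A_55_P1958823) read -2.00, -1.88 and -1.93 in controls and -2.25, -2.17 and -1.89 in mutants. Mutant 3 lay within the controls, and the difference was -0.17 (SE 0.14, 95% interval -0.49 to 0.16, adjusted p 0.987). The second probe (A_51_P510882) read -2.58, -2.09 and -2.44 in controls and -2.90, -3.34 and -3.07 in mutants. Here all 3 mutants lay below all 3 controls, at 59.2 to 84.7 intensity units against 94.3 to 130.3. The difference of this probe was -0.73 (SE 0.19, 95% interval -1.18 to -0.29), or 1.66-fold lower, with an unadjusted limma p of 0.00647, an adjusted p of 0.995 over all probes and an exact permutation p of 0.1, the smallest that 3 arrays against 3 allow. The third and dimmest probe (A_55_P2045571) differed by -0.44 (SE 0.21, 95% interval -0.94 to 0.07), with mutant 3 within the controls.

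The second Adam12 probe was the 1 of 13 member probes (7.69%) whose groups did not overlap and the 1 with an unadjusted p below 0.05. Over all 35228 tested probes, 0% were called at an adjusted p below 0.05, 3.51% were lower in mutants without overlap and 1.78% were lower at an unadjusted p below 0.05. Within each array the log2 ratio of the second probe to the brightest one was -0.58, -0.22 and -0.50 in controls and -0.65, -1.16 and -1.18 in mutants. The ratio in each mutant thus lay below the lowest control, and the group means differed by 0.56 (exact permutation p 0.1, 2-sided, 1 of 5 such pairs of probes of one gene compared). The probes of this gene thus gave unequal differences, and where on the transcript each probe lies is not given in the sources used here. With normexp background correction and percentile scaling the brightest probe differed by -0.15, the second by -0.41 and the third by -0.23. With the mean of the 3 probes Adam12 differed by -0.44.

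**Figure D2:**
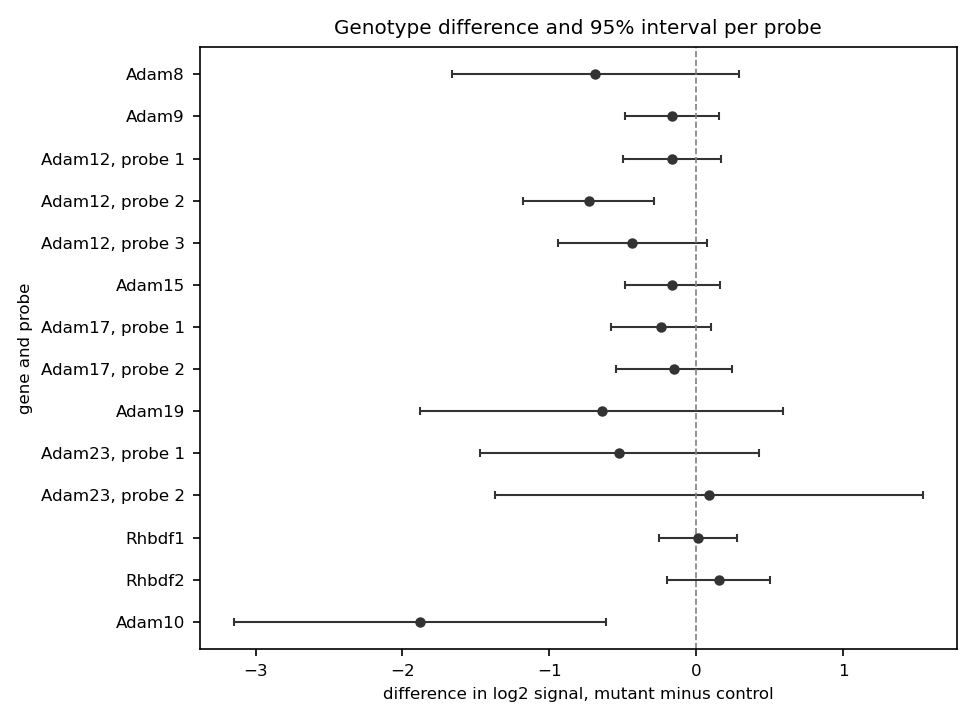
Difference in log2 signal (mutant minus control, horizontal axis) with its 95% interval from limma, fitted on all tested probes with 3 arrays in each group, for each of the 13 probes and for Adam10. The intervals of 12 of the 13 probes cross 0, the second Adam12 probe does not at -1.18 to -0.29, and the widest belongs to the second Adam23 probe.

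Adam8 is a sheddase of neutrophils, macrophages and osteoclasts, where it takes part in cell fusion and migration. Its log2 signals were 0.36, 1.18 and 1.29 in controls and 0.64, -0.56 and 0.68 in mutants. Mutants 1 and 3 lay between control 1 and the other controls, and mutant 2 lay below all arrays. The difference was -0.69 (SE 0.41, 95% interval -1.67 to 0.30, adjusted p 0.987), or 1.61-fold lower with an interval from 0.814 to 3.19. Without mutant 2 it was -0.28. On the 4 arrays with Y-linked signal, 2 of each genotype, it was -1.19 (adjusted p 0.840), and without both control 1 and mutant 2 it was -0.57 with an SE of 0.10 (adjusted p 0.382).

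Adam19, or meltrin beta, is needed in mice for the development of the heart and cleaves neuregulins. It read 1.60, 1.52 and 1.09 in controls and 1.37, -0.49 and 1.38 in mutants. Mutants 1 and 3 lay inside the range of the controls, while mutant 2 was lower than every other array by more than 1 log2 unit. The difference was -0.64 (SE 0.52, 95% interval -1.89 to 0.60, adjusted p 0.987), and without mutant 2 it was -0.021. Only 4.7% of tested features had a larger spread within groups than Adam19.

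Adam23 lacks an active protease site and serves in cell adhesion through integrins and the secreted LGI proteins. Its brighter probe (A_51_P282144) read -1.21, -1.82 and -1.94 in controls and -1.71, -3.04 and -1.79 in mutants. As with Adam19, mutants 1 and 3 lay within the controls and mutant 2 lay far below. The difference was -0.52 (SE 0.40, 95% interval -1.48 to 0.43, adjusted p 0.987), and without mutant 2 it was -0.095. The other probe (A_55_P2073754) was well above background on 1 control and 2 mutants and differed by 0.09 (SE 0.61, 95% interval -1.37 to 1.54).

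Mutant 2 was the lowest of the 6 arrays for 5 of the 9 genes (55.6%), which were Adam8, Adam9, Adam15, Adam19 and Adam23, against 18.7% of all features. Over probes it was the lowest for 8 of 13 (61.5%), against 18.3% of all tested probes. Marker lists of other cell types in the sample moved on the same array. Macrophage markers, of which 12 of 15 were tested and 11 had a difference below 0, were summarised as a score, the mean log2 signal after subtracting each gene's mean over the arrays. That score was 0.31 to 0.72 on controls, -0.031 on mutant 1, 0.09 on mutant 3 and -1.55 on mutant 2. Of that list Cd68 was matched to no probe, Cd163 was well above background on 0 arrays and Vsig4 on 1, while 11 of the 12 tested markers were above it on all 6.

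All 15 endothelial markers were above background on every array and 14 had a difference below 0. Controls scored 0.08 to 0.45, mutant 1 0.06, mutant 3 0.12 and mutant 2 -1.13. Osteoclast markers, 15 of 15 below 0, scored -1.45 on mutant 2, -0.11 and 0.02 on the other mutants and 0.40 to 0.69 on controls. Osteoblast markers scored -1.01 on mutant 2, -0.27 on control 1 and -0.019 to 0.52 on the other arrays. Chondrocyte markers were highest on mutant 2, at 0.41, against -0.36 to 0.03 on the other arrays. In such bulk tissue fewer cells of a type and less RNA per cell cannot be told apart. With the macrophage score as a covariate the differences were 0.048 for Adam8, 0.52 for Adam19 (SE 0.20) and 0.24 for Adam23, and with the endothelial score they were -0.17, 0.31 (SE 0.13) and 0.14. The adjusted p of each of these values was 1. With a marrow score, made from the neutrophil, erythroid and B lymphocyte markers, they were -1.02, -0.42 and -0.28, all with an adjusted p of 1. The macrophage score of every mutant lay below that of every control, and mutant 2 had the lowest macrophage and endothelial scores. With so few arrays such fits cannot divide a difference between genotype and cell content. The part of these cell types in the differences was thus not tested.

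**Figure D3:**
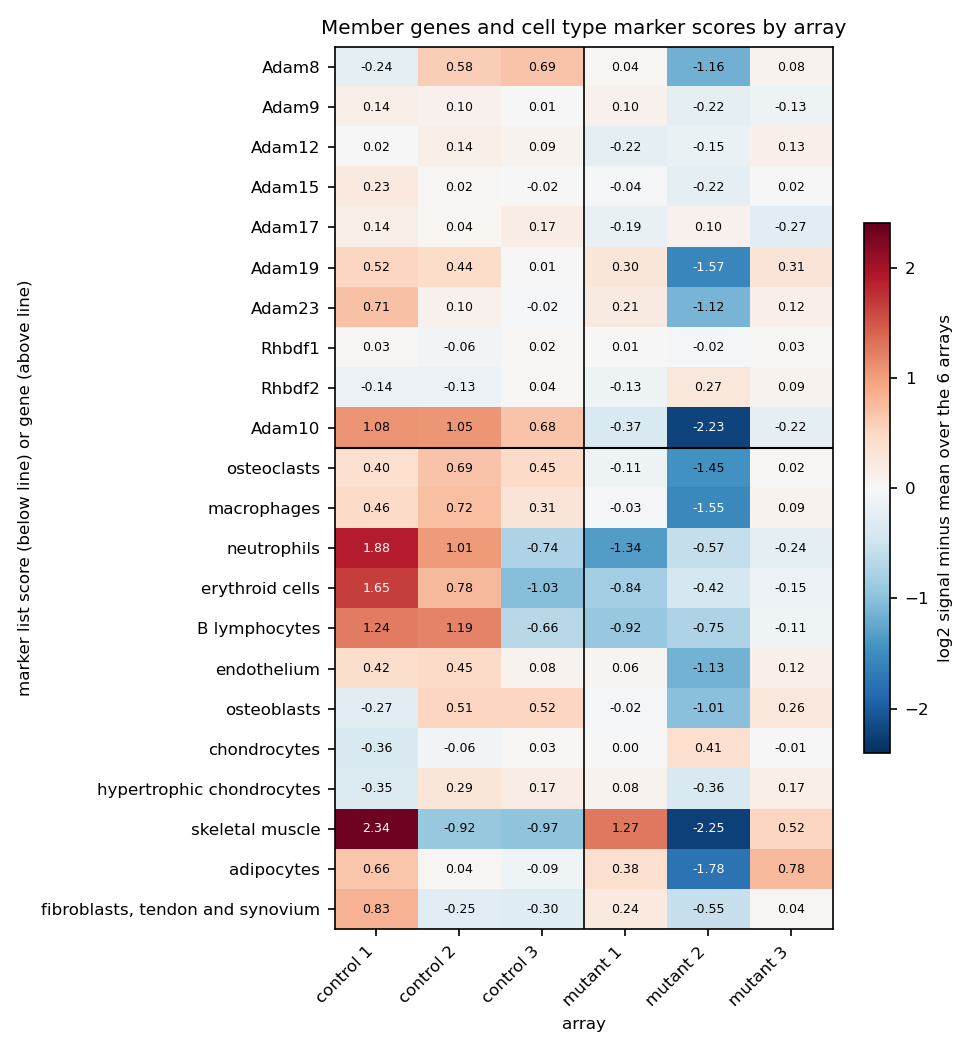
Log2 signal minus the mean over the 6 arrays (colour and printed value) for the 9 genes and Adam10, above the line, and scores of 12 marker lists, below it, with 1 column per array. Adam8, Adam19 and Adam23 are blue on mutant 2 at -1.16, -1.57 and -1.12, as are the scores of osteoclasts, macrophages, endothelium, osteoblasts, skeletal muscle and adipocytes, while Rhbdf1 runs from -0.065 to 0.032.

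Neutrophil markers did not share the order of Adam8. Their score was 1.88 and 1.01 on controls 1 and 2 and -0.74 on control 3, whereas Adam8 was lowest among controls on control 1 and highest on control 3. Skeletal muscle markers scored 2.34 on control 1, 1.27 on mutant 1 and -2.25 on mutant 2. On those arrays the brightest Adam12 probe read -2.00, -2.25 and -2.17, not in their order. The second probe read -2.58, -2.90 and -3.34 there, in their order, and the third -3.97, -4.96 and -4.78. On controls 2 and 3 and mutant 3 the muscle score was -0.92, -0.97 and 0.52. The second probe read -2.09, -2.44 and -3.07 on these, not in that order. The part of muscle in the Adam12 signals was not tested.

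Each gene, by its brightest probe only, was also set beside all tested features with a symbol. The measure was the mean absolute difference of centred log2 signals over the 6 arrays. The patterns nearest to Adam19 were those of Fam20a at 0.0481, Robo4 at 0.0535 and Cldn5 at 0.0712. The median over all symbols was 0.58, and the nearest symbols lie below it by selection. Centred Adam19 stood at -1.57 on mutant 2 and at 0.0079 to 0.52 on the other arrays, so a near symbol must also be low on mutant 2. Robo4 and Cldn5 are on the list of endothelial markers. Nearest to Adam23 were Ston2, Cd34 and Sipa1l2, at 0.0706 to 0.0807, and nearest to Adam8 were Pcdh7, Slc13a3 and Matk, at 0.0759 to 0.105. For the brightest Adam12 probe they were the bone collagen gene Col1a1 at 0.0198, Exoc8 and Recql4. For Adam9 they were Vmn1r52, Mdh2 and Ccdc9, for Adam15 Ndufv1, Cdc34 and 1700057H15Rik, and for Adam17 Hgfac, Trem1 and Lrch1. For Rhbdf1 they were Prx, Vps52 and Myo1c, and for Rhbdf2 Tst, Zfp771 and Tmem167b. Within the 9 genes Adam19 and Adam23 were each other's nearest, at 0.21, with 1.11% of symbols closer to Adam19 and 2.01% closer to Adam23.

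The other genes of the pathway were taken from 4 lists, and 0 genes of any list were called in either direction at an adjusted p below 0.05. The list of ADAM genes held 22, Adam10 included. Of these, 13 were not tested because their probes were too dim, among them Adam2 and Adam3 of the testis and Adamdec1 and Adam28 of lymphoid and gut tissue. Of the 9 tested, 3, with Adam10 among them, were below 0 and 6 above, with a median of 0.01. Without Adam10 the median of the other 8 was 0.06. Besides Adam10 those with the smallest p were Adam5 at -0.17 (SE 0.12), Adam32 at 0.18 (SE 0.22) and Adam21 at 0.13 (SE 0.18). For Adam5 the groups did not overlap (exact permutation p 0.1, unadjusted limma p 0.203).

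All 7 other rhomboid genes were tested, with 4 above 0 and a median of 0.11. Rhbdd1, a rhomboid protease of the endoplasmic reticulum, differed by 0.58 (SE 0.24, unadjusted limma p 0.0471, adjusted p 0.987), and its groups overlapped. Rhbdl2, a rhomboid protease of the plasma membrane, differed by 0.22 (SE 0.15), Rhbdl3 by -0.43 (SE 0.39) and Rhbdd3 by 0.11 (SE 0.13).

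Genes that process, carry or inhibit ADAM proteins were tested in 20 of 20 cases, with 15 above 0 and 5 below and a median of 0.13. The kinase gene Prkca, whose product stimulates shedding, differed by 0.29 (SE 0.15) and the proprotein convertase Pcsk6 by 0.35 (SE 0.22). Sh3pxd2b, an adaptor of the invadopodia, differed by -0.52 (SE 0.33), and the endophilin Sh3gl1 by 0.22 (SE 0.16). The following were picked after their values were seen. Furin, which removes the inhibitory prodomain of ADAM proteins, differed by 0.14 (SE 0.17). Frmd8, which binds the iRhoms and stabilises them at the cell surface, was higher in every mutant than in every control, at 0.20 (SE 0.15, unadjusted limma p 0.230). Timp3, the tissue inhibitor that blocks ADAM17, differed by 0.25 (SE 0.18). The adjusted p of each gene named here was 0.987.

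Of 24 genes whose proteins ADAM17 sheds, 18 were tested, with 12 below 0 and a median of -0.20. Vcam1, an adhesion molecule of endothelium and stroma, differed by -0.55 (SE 0.25), the tumour necrosis factor receptor gene Tnfrsf1b by -0.91 (SE 0.44) and the receptor gene of macrophage colony-stimulating factor, Csf1r, by -0.91 (SE 0.45). For Vcam1, Tnfrsf1b and Csf1r every mutant lay below every control, and the limma adjusted p of each was 0.987. Csf1r is also on the macrophage list, whose score on each mutant lay below the lowest control. The mean score of the 18 substrate genes ran from 0.11 to 0.23 on controls, and it was 0.13 on mutant 3, -0.017 on mutant 1 and -0.60 on mutant 2. The ligands Areg and Ereg were well above background on 0 arrays and Tnf on 1 control only, so they were not tested.

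**Figure D4:**
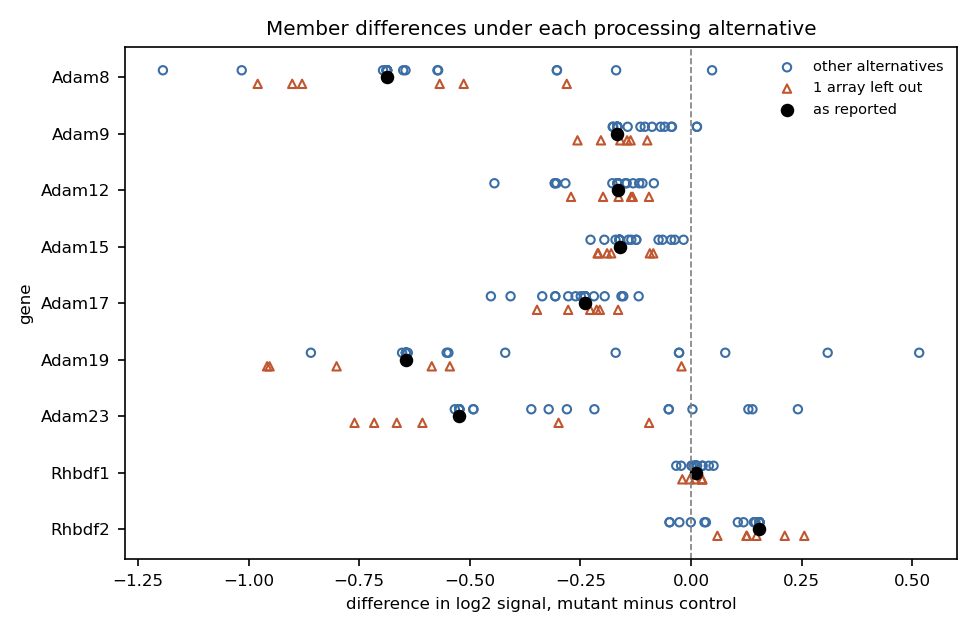
Difference in log2 signal (mutant minus control, horizontal axis) of each of the 9 genes as reported (filled circle), in the 6 fits that leave out 1 array (triangles) and in 19 other processing alternatives (open circles). Adam12, Adam15 and Adam17 stay below 0 in all of these fits, Rhbdf1 stays between -0.033 and 0.051, and Adam19 and Adam23 spread to both sides of 0.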

How the data were processed

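RNA (100 ng per sample) was labelled for 1-colour Agilent arrays, per the labels' protocols. The submitters' processing notes name Agilent Feature Extraction, version 10.7.1.1. The authors deposited background-subtracted intensity values per spot, not normalized between arrays, and a value table that, read from its values, is a linear ratio to each array's 75th percentile (column medians 0.094 to 0.104). Here the log2 processed signal minus the 75th percentile of non-control spots was used, outlier spots were left out and spots of a probe averaged. Probes well above background on at least 3 of 6 arrays were kept. Symbols came from RefSeq accessions (GRCm38.p6, 27656 of 55681 probes matched), and the array design refers to mm9, so no coordinates are given. A gene was represented by its brightest probe, and a second fit took each of 35228 probes.

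The genotypes were tested against each other in limma 3.58.1 under R 4.3.3 (2-sided, Benjamini-Hochberg over all features). The fit was run on simulated data with noise independent between genes and arrays. Those data hold no shift of a whole array, so they do not show how the fit handles arrays that stand apart. Unadjusted p-values are limma's unless named exact. No probe's level is set against another's, except as a ratio within an array. With 3 mice per group the number of arrays limits the precision. The genes and lists were chosen with earlier results of these data known. Named genes are the 9, Adam10, the 4 of each pathway list with the smallest p (1 of them is not reported here) and, per gene, the 3 most alike in pattern. The alternatives concern background, scaling, filters, probes, weights, pairing, sex, slide row, cell content and single arrays.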

Additional observations from a re-analysis of the deposited data

How the results depend on the processing

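Under 25 alternatives, 207 of 225 differences of the 9 genes kept their sign and 0 were called, and the number of genes below 0 ran from 5 to 8. The replicate block, the eBayes setting and the other filters on dim probes left all of these differences unchanged. Their kept signs are in the count but say nothing about robustness. Over all features limma called 1 higher and 3 lower with array weights, and 0 under every other alternative. Signs turned for Rhbdf1 at -0.033 (normexp with quantile scaling), -0.022 (quantile scaling) and between -0.020 and 0.026 with 1 array left out, and for Adam23 at 0.0034 with array weights. On the first slide row, and equally with slide row as a block, Adam9 stood at 0.013 and Rhbdf2 at -0.048. Those fits set mutant 1 alone against the controls. In them Adam8 stood at -0.30, Adam19 at -0.027, Adam23 at -0.050 and Adam15 at -0.12. Adam12 and Adam17 each stood at -0.31, Rhbdf1 at 0.014 and Adam10 at -1.31. Without both control 1 and mutant 2, Adam19 was 0.078 and Adam23 0.13, and the second Adam17 probe 0.043. With the macrophage score as a covariate Adam8 was 0.048, Adam19 0.52, Adam23 0.24, Rhbdf2 -0.026 and the second Adam17 probe 0.085, and with the endothelial score Adam19 was 0.31, Adam23 0.14, Rhbdf2 -0.00029 and that probe 0.047. The second Adam23 probe, near background, was -0.047 with normexp and ran from -0.38 to 0.60 with 1 array left out. The cause of these changes was not tested. A block for the replicate number cannot change a difference in this balanced design, only its SE. With it the SE of Adam17 was 0.16 (limma adjusted p 0.985) and 0 features were called. The SE was 0.29 for Adam23 and 0.48 for Adam19, against 0.40 and 0.52 without it. The labels do not say that a number marks a shared litter or day, so the numbers were not taken as pairs. The deviations of same-numbered mice had correlations of 0.207, 0.0607 and -0.164. Matching probes by a gene name column was not run, because the columns read hold none.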
